A study of Mus musculus with 10 samples.

Results

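The cytosolic ribosomal protein genes encode the proteins of the 60S (Rpl) and 40S (Rps) subunits of the ribosome, and their mRNA levels were compared between the hippocampus of Dp1Tyb and wild-type (WT) mice. Genes were chosen by name: protein-coding genes whose symbol is Rpl or Rps and a number, plus Rpsa, Rplp0, Rplp1 and Rplp2, but not the S6 kinases. Of 83 such genes, the 79 with a mean level of at least 1 CPM (counts scaled to a common library size with TMM factors) over all samples were kept, among 43629 genes in the count table. All 79 passed the filter on low counts, which left 17237 genes for testing. There were 47 genes of the large subunit and 32 of the small subunit. The CPM limit fell in a wide gap, with Rps27l just inside at 7.54 CPM and Rpl24 just outside at 0.765 CPM. Rpl3l at 0.382 CPM, Rpl39l at 0.0745 CPM and Rpl10l, with no read, were also left out.

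Dp1Tyb mice carry Dp(16Lipi-Zbtb21)1TybEmcf, a duplication of the part of chromosome 16 from Lipi to Zbtb21, and are a model of Down syndrome. The extra copy is present in every cell of the animal and was not targeted to neurons. Total hippocampus was taken from 5 Dp1Tyb mice and 5 WT mice, all labelled as 18 weeks old and as strain C57BL/6J.129P2. Each mouse gave 1 library. According to the study's methods all were males, the WT mice were littermates, the line had been backcrossed to a C57BL substrain, and the age was slightly above that of the labels. In bulk tissue, a smaller share of a cell type and less RNA per cell cannot be told apart.

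Each ribosome holds a single copy of most of these proteins, so their genes are expressed together in almost every cell. Most of the mRNAs begin with a C followed by a run of pyrimidines, the 5′ terminal oligopyrimidine (TOP) motif, through which mTOR signalling and the protein Larp1 control their translation. In neurons, ribosomes are found in the cell body and also in dendrites and axons, where local synthesis of proteins serves synaptic plasticity. Ribosomal protein genes have also left many processed pseudogenes, copies of the mRNA inserted elsewhere in the genome.

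The start of the mRNA is the sequence that the family shares at the level of RNA control, so the start windows of selected genes are shown. Each window runs from 10 bases before the RefSeq start site to 20 bases from it on (30 bases in all, GRCm38.p6), 5′ to 3′ on the gene's strand. Capitals mark every C that is followed by at least 4 bases that are C or T, with the whole run. Rpl36a, Rps28, Rpl13a, Rpl37a, Rps26 and Rpl10a are among the 8 genes with the smallest p for a lower level in Dp1Tyb, Rps6 encodes the S6 kinase target, and Rpl27a was added, after its value was seen, as the gene with the longest run.
Rpl36a, chrX:134585644-134585673, plus strand: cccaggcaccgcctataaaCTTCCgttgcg
Rps28, chr17:33824543-33824572, minus strand: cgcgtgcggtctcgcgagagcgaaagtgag
Rpl13a, chr7:45128726-45128755, minus strand: cctgcgacaagaCCTCCTCCTTTCCCaggc
Rpl37a, chr1:72711250-72711279, plus strand: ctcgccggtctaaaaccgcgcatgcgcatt
Rps26, chr10:128626487-128626516, minus strand: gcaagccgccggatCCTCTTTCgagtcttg
Rpl10a, chr17:28328461-28328490, plus strand: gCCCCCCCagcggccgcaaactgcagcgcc
Rps6, chr4:86857348-86857377, minus strand: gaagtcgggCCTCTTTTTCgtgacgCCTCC
Rpl27a, chr7:109519185-109519214, plus strand: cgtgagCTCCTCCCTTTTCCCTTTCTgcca

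A RefSeq start was found for 59 of the 79 genes, and 36 of these windows, or 61.0%, held such a run on the sense strand. The share was 35.8% over the windows of all 27025 genes with a RefSeq start. A run was counted anywhere in the window, also before the start site, as in Rpl10a. The TOP motif begins at the first base of the mRNA, so these shares do not measure it. In Rpl27a the run was 20 bases long, in Rpl13a 14 bases and in Rps26 8 bases. The windows of Rps28 and Rpl37a held no run, which says only that these letters are not in the windows. RefSeq and the annotation used for the counts need not place the start at the same base.

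Total counts ranged from 18227684 to 43692270 per sample. Markers of hippocampal neurons were measured for 10 of 10 genes, with a summed level of 1173 to 1372 CPM in WT and 1230 to 1305 CPM in Dp1Tyb. The markers of choroid plexus, the secretory tissue beside the hippocampus, varied most: the summed level of 12 of 12 markers was between 820 and 8394 CPM in WT and between 196 and 5758 CPM in Dp1Tyb, with none of them at 0 in all samples. Dp1Tyb replicates 4 and 1 had the lowest choroid plexus levels, and the main results are given with and without these mice. Of the marker lists of other cell types, 2 held a called gene: Gfap of astrocytes and Gad2 of inhibitory neurons were higher in Dp1Tyb, with log2 fold changes of 0.26 and 0.34 (edgeR, adjusted p = 0.0167 and 0.0410). In these lists, 2 of 6 astrocyte genes and 1 of 7 neuron genes were below 0. Neither call held in every fit with a mouse left out. The lists of oligodendrocytes and thalamus, with median log2 fold changes of 0.060 and 0.15, held none. No pair of libraries was the same within sampling noise.

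The 79 genes lay on 19 chromosomes, 14 of them on chromosome 7 and 4 on the X chromosome. None lay in the duplicated region, and Rpl35a was the only one elsewhere on chromosome 16. Together they took 0.753% to 0.796% of the counts in WT and 0.616% to 0.764% in Dp1Tyb. These shares are underestimates of the mRNA, since reads that aligned to more than 1 place were discarded by the authors and many ribosomal protein genes have near-identical copies.

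Per exon length, the genes differed widely although most of the proteins are present in equal numbers in a ribosome. The median level was 37.0 RPKM (the CPM per kilobase of exon), and the range was from 3.62 to 514 RPKM. The median of all genes tested that have an exon length was 4.10 RPKM. Rplp1, an acidic protein of the stalk that recruits elongation factors, had the highest level at 514 ± 71.8 RPKM (SD, n = 10). It was followed by Rps15, a protein near the decoding site, at 274 ± 6.49 RPKM and by Rpl4, which lines the exit tunnel, at 210 ± 8.74 RPKM. The next genes, both of the small subunit, were Rps3a1 at 173 ± 20.2 RPKM and Rps29 at 164 ± 21.0 RPKM. Their ranges of mean ± SD overlap. Both were measured in the same mice, and their difference was not tested.

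The lowest levels per length belonged to Rps19, a small subunit protein mutated in Diamond-Blackfan anaemia, at 3.62 ± 0.357 RPKM, and Rpl21 at 4.47 ± 0.673 RPKM. Also among the 5 lowest were Rpl9 at 6.38 ± 1.00 RPKM and Rpl29 at 6.84 ± 1.20 RPKM. Here too the ranges of mean ± SD overlap, and the difference was not tested. The exon length joins all annotated exons of a gene, also those of rarely used transcripts, so RPKM is lowered in genes with long annotated isoforms.

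**Figure D1:**
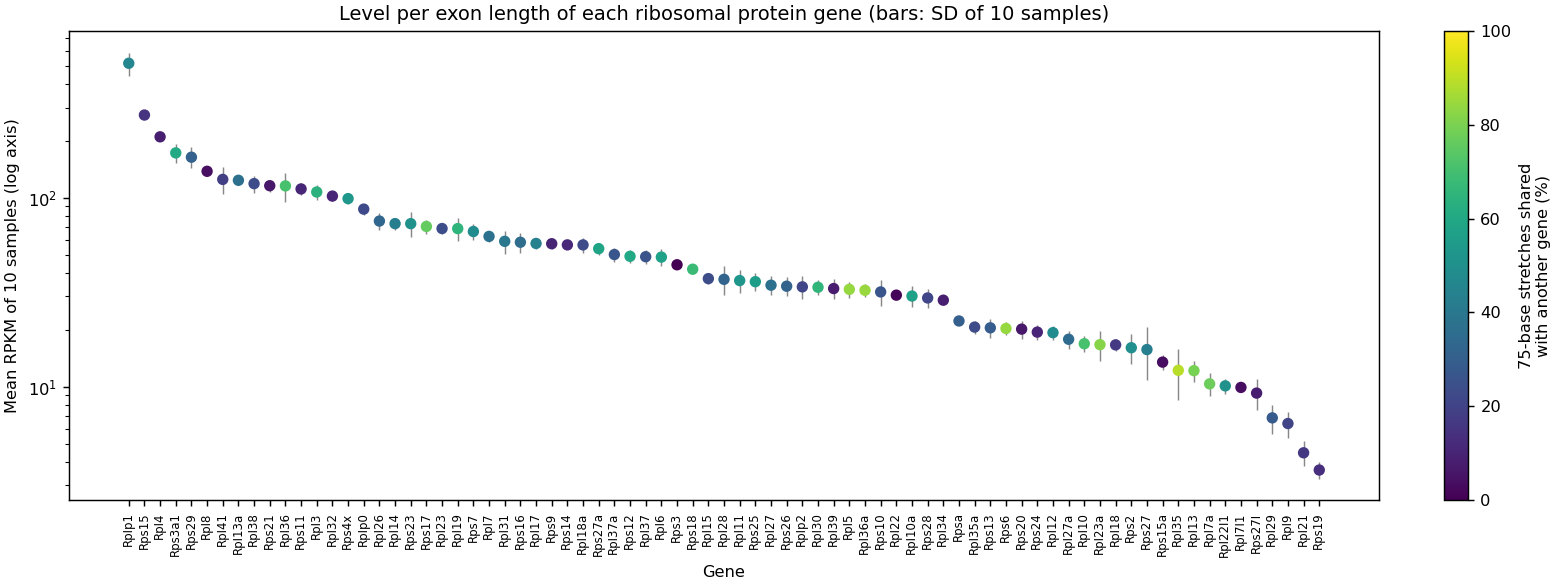
Mean level of 77 of the 79 genes in RPKM (log axis) over all 10 samples, with bars for the SD, ordered from highest to lowest. Colour gives the percent of the 75-base stretches of the gene's coding transcripts that also occur in another gene. Levels run from 514 RPKM in Rplp1 to 3.62 RPKM in Rps19.

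To see how far the reads of these genes could align elsewhere, every 75-base stretch of their protein-coding transcripts was looked up in the transcripts of all other annotated genes. The look-up covered both strands and included genes that overlap at the same place, where a shared stretch is not a second place in the genome. The median gene shared 32.0% of its stretches with another gene. For 25 genes at least 50% was shared, for 13 under 10%, and 2 genes shared none, among them Rps3, named here after its value was seen. Rps6 shared 84.1% of its stretches with Rps6-ps4, and Rpl36a shared 60.4% with Rpl36a-ps2. The median level was 35.9 RPKM in the 25 genes with much sharing and 33.0 RPKM in the 13 genes with little. The percent is taken over the stretches of all coding transcripts of a gene, so long transcripts lower it. Rps15a shared 211 of 6023 stretches (3.50%), and Rpl21 shared 16.4% although 60 pseudogenes held some of its stretches. The part of discarded reads in the levels was not tested.

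Reads were also counted for the pseudogenes. Of 263 genes named as ribosomal protein pseudogenes, 34 had a mean level of at least 1 CPM, and the summed mean level of all of them was 403 CPM beside 7437 CPM for the 79 genes. Rps6-ps4 was listed at 111 CPM while Rps6, the intact gene, had a mean of 32.2 CPM. Rpl9-ps6 was at 38.2 CPM and Rpl9 at 19.7 CPM. Rps6 shared 84.1% of its stretches with Rps6-ps4. Rpl9 shared 17.9% with Rpl9-ps6, which has a transcript annotated as protein-coding. The split of reads between each gene and its copy is uncertain, and the levels of Rps6 and Rpl9 should be read with that limit.

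The first comparison asks whether ribosomal protein mRNA differed between the genotypes. The summed level of the 79 genes in WT replicates 1 to 5 was 7842, 7644, 7777, 7545 and 7768 CPM. In Dp1Tyb replicates 1 to 5 it was 7068, 7384, 7479, 6149 and 7719 CPM. The first 4 Dp1Tyb mice lay below all WT mice, Dp1Tyb 4 by far the lowest, while Dp1Tyb 5 lay within the WT range. The means were 7715 ± 119 (WT) and 7160 ± 611 CPM (Dp1Tyb, SD, n = 5 each), a difference of −7.20%. Without Dp1Tyb 4 the difference was −3.92%, and without Dp1Tyb 1 and 4 it was −2.43%.

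**Figure D2:**
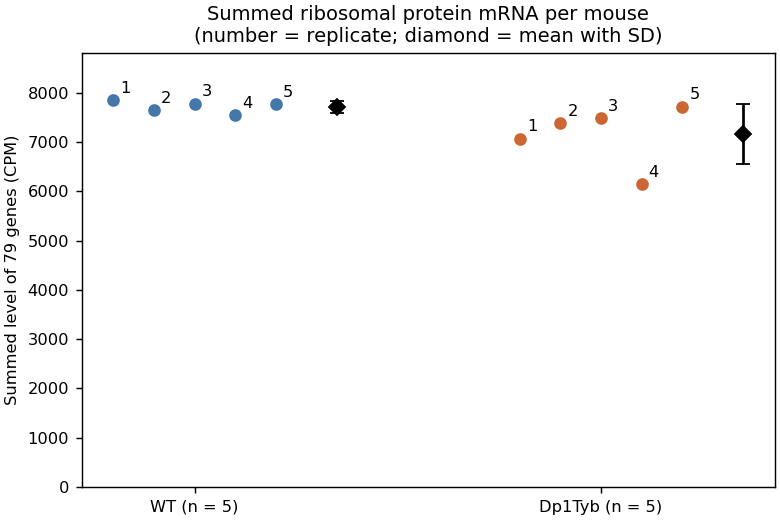
Summed level of the 79 ribosomal protein genes in CPM for each mouse (points, numbered by replicate) with the mean and SD of each genotype (diamonds). WT mice lie between 7545 and 7842 CPM and Dp1Tyb mice between 6149 and 7719 CPM, with Dp1Tyb 4 lowest.

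Gene by gene, the differences were small, mostly in the same direction, and none passed the test. In edgeR with Benjamini-Hochberg adjustment over all genes, 0 of 79 genes had an adjusted p under 0.05, where 1.11% of all tested genes did, 0.87% higher and 0.238% lower in Dp1Tyb. At an unadjusted p under 0.05, 20 of the 79 genes (25.3%) were lower and 0 higher, beside 6.4% and 7.97% of all genes tested. DESeq2 and limma-voom also called 0 of the 79, with 26 lower at an unadjusted p under 0.05 in each. The shares of all genes lower at that limit were 4.1% of 28977 genes in DESeq2 and 6.9% of 17237 genes in limma-voom. The log2 fold change was below 0 for 70 of the 79 genes (88.6%), and for 51.3% of all genes. Its median was −0.12, with a range of −0.48 to 0.16, and the median of all genes tested was −0.0041. The genes share their samples and are not replicates of each other, so these counts are descriptions.

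The large and small subunit genes had the same median, −0.12 in both. Below 0 were 42 of the 47 large subunit genes and 28 of the 32 small subunit genes. At an unadjusted p under 0.05, 12 large and 8 small subunit genes were lower. In 5 genes (6.33%) all Dp1Tyb samples lay below all WT samples, beside 1.12% of all genes tested, and in 0 genes the reverse, beside 2.56%. The 5 genes were Rpl8, Rpl13a, Rpl37a, Rpl10a and Rpl15. With Dp1Tyb 4 left out, the number of genes lower in this way was 5 of 79, beside 1.49% of all genes tested.

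**Figure D3:**
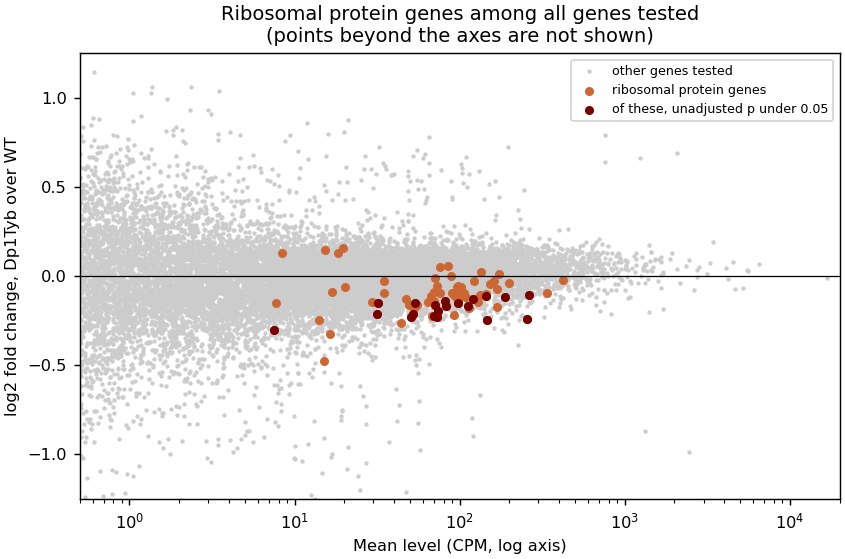
Log2 fold change of Dp1Tyb over WT against mean level in CPM (log axis) for all genes tested (grey) and the 79 ribosomal protein genes (orange, dark where the unadjusted p is under 0.05). The ribosomal protein genes form a band mostly below 0, with a median of −0.12.

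Among the large subunit genes, Rpl36a had the smallest p. It encodes a protein of the site where deacylated tRNA leaves the ribosome (ENSMUSG00000079435, chrX:134585654-134588062, plus strand). Its level was 59.5, 55.5, 58.9, 53.8 and 54.1 CPM in WT replicates 1 to 5 and 49.9, 52.1, 50.7, 46.7 and 54.3 CPM in Dp1Tyb replicates 1 to 5. The groups overlapped only through Dp1Tyb 5, which was above WT 4 and WT 5. The log2 fold change was −0.15 ± 0.049 SE (edgeR, adjusted p = 0.182), and most of its stretches also occur in other genes.

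Rpl8 encodes a protein near the peptidyl transferase centre, where peptide bonds are made (ENSMUSG00000003970, chr15:76904078-76906314, plus strand). Its level was 191, 192, 193, 202 and 198 CPM in WT and 185, 183, 177, 164 and 190 CPM in Dp1Tyb, in replicate order. The groups did not overlap, although Dp1Tyb 5 came within about 1 CPM of the lowest WT sample. Its log2 fold change was −0.12 ± 0.040 SE (edgeR, adjusted p = 0.217).

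Rpl13a is a large subunit protein that also acts off the ribosome in the interferon-induced repression of translation (ENSMUSG00000074129, chr7:45125558-45128761, minus strand). Its level was 276, 270, 266, 266 and 277 CPM in WT and 255, 251, 258, 231 and 263 CPM in Dp1Tyb. The WT mice were close together, and every Dp1Tyb mouse was below them. In edgeR, the log2 fold change was −0.11 ± 0.037 SE (adjusted p = 0.220). Gm45713, annotated as protein-coding, and small RNA genes, among them Snord33, overlap its exons on the same strand. Rpl13a shared 36.4% of its stretches with Gm45713.

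Rpl37a, a zinc-binding protein of the large subunit (ENSMUSG00000046330, chr1:72711290-72713813, plus strand), was at 78.4, 74.4, 73.8, 73.2 and 72.3 CPM in WT and at 64.8, 70.1, 71.3, 57.0 and 70.0 CPM in Dp1Tyb. The groups were separate, with Dp1Tyb 4 and 1 lowest. Its log2 fold change was −0.16 ± 0.057 SE (edgeR, adjusted p = 0.230), and −0.083 without Dp1Tyb 1 and 4. Rpl10a, which forms the stalk beside the tRNA exit site (ENSMUSG00000037805, chr17:28328471-28331033, plus strand), was at 77.3, 75.8, 86.9, 77.0 and 78.9 CPM in WT and 65.6, 70.6, 74.6, 51.6 and 74.9 CPM in Dp1Tyb. Dp1Tyb 4 was far below the others, and the groups were again separate. The log2 fold change was −0.23 ± 0.086 SE (edgeR, adjusted p = 0.248) and was −0.15 without Dp1Tyb 4 and −0.11 without Dp1Tyb 1 and 4.

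Rpl15, named after its values were seen (ENSMUSG00000012405, chr14:18267823-18271391, minus strand), had the smallest spread in WT of all 79 genes, with a CV of 1.58%. Its level was 95.2, 94.8, 98.2, 95.2 and 94.6 CPM in WT and 86.7, 94.3, 93.2, 77.6 and 92.7 CPM in Dp1Tyb. Dp1Tyb 2 was just below the lowest WT mouse. In edgeR, the log2 fold change was −0.11 ± 0.050 SE (adjusted p = 0.361), and it was −0.062 without Dp1Tyb 4 and −0.036 without Dp1Tyb 1 and 4.

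The P stalk, which binds elongation factors and stimulates their GTPase activity, is made of Rplp0, Rplp1 and Rplp2. Rplp1 (ENSMUSG00000007892, chr9:61913284-61914542, minus strand) was at 264, 257, 275, 290 and 305 CPM in WT and at 204, 246, 245, 194 and 286 CPM in Dp1Tyb. Dp1Tyb 1 and 4 were lowest, and Dp1Tyb 5 was within the WT range. For Rplp1, the log2 fold change in edgeR was −0.24 ± 0.090 SE (adjusted p = 0.248), and it was −0.18 without Dp1Tyb 4 and −0.10 without Dp1Tyb 1 and 4. For Rplp2, the partner of Rplp1, the means were 75.3 ± 7.34 (WT) and 64.6 ± 9.59 CPM (Dp1Tyb, SD, n = 5 each), and its log2 fold change in edgeR was −0.22 ± 0.093 SE (adjusted p = 0.296), or −0.11 without Dp1Tyb 1 and 4. Rplp0, the base of the stalk, was at 149 ± 2.83 (WT) and 139 ± 11.4 CPM (Dp1Tyb), and its log2 fold change in edgeR was −0.10 ± 0.051 SE (adjusted p = 0.389), or −0.056 without Dp1Tyb 4 and −0.038 without Dp1Tyb 1 and 4.

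Among the small subunit genes, Rps28 had the smallest p. It encodes a protein at the channel through which the mRNA leaves the ribosome (ENSMUSG00000067288, chr17:33819027-33824562, minus strand). Its level was 55.8, 56.7, 57.3, 51.8 and 51.6 CPM in WT and 45.1, 48.7, 49.0, 37.7 and 52.8 CPM in Dp1Tyb. Of the Dp1Tyb mice, replicate 5 alone was above any WT mouse. The log2 fold change was −0.23 ± 0.076 SE (edgeR, adjusted p = 0.192), and it was −0.16 without Dp1Tyb 4 and −0.13 without Dp1Tyb 1 and 4. Exons of Kank3 overlap it on the other strand.

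Rps26, a protein of the same exit channel that is mutated in Diamond-Blackfan anaemia (ENSMUSG00000025362, chr10:128624534-128626747, minus strand), was at 54.3, 53.3, 56.4, 55.3 and 62.2 CPM in WT and at 42.6, 49.2, 52.1, 43.1 and 56.6 CPM in Dp1Tyb. Dp1Tyb 1 and 4 were lowest and Dp1Tyb 5 was within the WT range. For Rps26, the log2 fold change in edgeR was −0.21 ± 0.076 SE (adjusted p = 0.237), and it was −0.17 without Dp1Tyb 4 and −0.099 without Dp1Tyb 1 and 4. Rps6, which is phosphorylated by the S6 kinases downstream of mTOR (ENSMUSG00000028495, chr4:86854660-86857412, minus strand), was at 34.05, 32.7, 37.6, 32.4 and 32.7 CPM in WT and 28.2, 29.8, 30.7, 30.6 and 33.5 CPM in Dp1Tyb. Here Dp1Tyb 1 was the lowest mouse and Dp1Tyb 4 was close to the other Dp1Tyb mice. Its log2 fold change was −0.15 ± 0.057 SE (edgeR, adjusted p = 0.263). It was −0.15 also without Dp1Tyb 4, and −0.12 without Dp1Tyb 1 and 4.

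Rpsa, the small subunit protein also known as a laminin receptor precursor, had close means in the genotypes, at 70.8 ± 2.56 (WT) and 70.3 ± 3.45 CPM (Dp1Tyb, SD, n = 5 each). Its log2 fold change was −0.0099 ± 0.043 SE (edgeR, adjusted p = 0.937). Rps27a, which is made as a fusion with ubiquitin, was at 110 ± 4.60 (WT) and 102 ± 10.03 CPM (Dp1Tyb), and its log2 fold change in edgeR was −0.097 ± 0.062 SE (adjusted p = 0.499).

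The lowest log2 fold change of the 79, −0.48 ± 0.24 SE (edgeR, adjusted p = 0.396), was that of Rpl35, a large subunit protein at the end of the exit tunnel, named after its values were seen. Its level was 15.3, 18.3, 17.4, 15.6 and 21.2 CPM in WT and 10.6, 13.0, 15.9, 5.24 and 18.9 CPM in Dp1Tyb. Dp1Tyb 4, 1 and 2 were below all WT mice, and Dp1Tyb 3 and 5 were within the WT range. Without Dp1Tyb 4 the log2 fold change of Rpl35 was −0.28, and without Dp1Tyb 1 and 4 it was −0.14, where Rpl13 at −0.27 was the lowest of the 79. With 89.2% of its stretches in other genes, Rpl35 shared more than any other of the 79. Its largest sharer, with 54.9%, was Wdr38, which overlaps Rpl35 on the other strand, and 21.2% was shared with pseudogenes.

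A log2 fold change above 0 was found for 9 genes, and none of them passed the test. Rpl9, a large subunit protein, had the highest at 0.16 ± 0.11 SE (edgeR, adjusted p = 0.554). Its level was 19.3, 19.1, 19.5, 16.6 and 18.6 CPM in WT and 20.5, 17.0, 17.1, 27.2 and 21.7 CPM in Dp1Tyb. The highest mouse was Dp1Tyb 4, the one in which most of the other genes were lowest.

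Rpl21, a large subunit protein, was also highest in Dp1Tyb 4. It was at 13.6 to 15.5 CPM in WT, 13.3 to 15.6 CPM in the other Dp1Tyb mice and 21.3 CPM in Dp1Tyb 4. In Rps15a, of the small subunit, Dp1Tyb 4 stood at 103 CPM, while the other Dp1Tyb mice were at 79.2 to 84.3 CPM. Rpl7a had its highest value, 24.0 CPM, in Dp1Tyb 4 as well. The log2 fold changes of Rpl21, Rpl7a and Rps15a were 0.14, 0.13 and 0.055, and without Dp1Tyb 4 they were 0.013, 0.035 and −0.021. That of Rpl9 was 0.034 without this mouse.

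Other genes above 0 were close to 0. Among them were Rpl17 at 0.051, Rps14, a small subunit gene lost in the 5q- syndrome, at 0.024, Rps15 at 0.012 and Rpl22 at 0.0012. Rps15 varied little between mice, with 166 to 177 CPM in WT and 170 to 180 CPM in Dp1Tyb. The signs of Rpl22 and Rps15 flipped under other scalings of the libraries: with scaling to library totals alone they were −0.015 and −0.0039, and with median-of-ratios factors Rpl22 was −0.0017.

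Of the paralog pairs, in which the second gene is by its name a relative of the first, both genes were tested in 5. Rpl22, a large subunit protein, was at 88.7 ± 3.32 (WT) and 88.8 ± 2.66 CPM (Dp1Tyb), and its variant Rpl22l1 at 20.5 ± 2.16 and 19.7 ± 1.63 CPM (SD, n = 5 each). Rps27, a zinc-binding protein of the small subunit, was at 16.4, 18.1, 20.5, 15.7 and 20.1 CPM in WT and at 11.05, 16.2, 16.4, 5.66 and 23.7 CPM in Dp1Tyb. The Dp1Tyb mice held both the highest and the lowest value, and the log2 fold change of Rps27 in edgeR was −0.33 ± 0.27 SE (adjusted p = 0.598). It was −0.12 without Dp1Tyb 4, and −0.57 to −0.12 over the single mice left out.

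Its variant Rps27l, a p53 target, was at 8.31 ± 1.12 (WT) and 6.78 ± 1.23 CPM (Dp1Tyb), and its log2 fold change in edgeR was −0.30 ± 0.13 SE (adjusted p = 0.325), or −0.13 without Dp1Tyb 1 and 4. It had at least 159 reads in every sample. Rpl7 and its relative Rpl7l1 had log2 fold changes of −0.072 and −0.030. Rpl3, a protein near the peptidyl transferase centre, was at −0.096 and its rare variant Rpl3l, with means of 0.331 ± 0.144 (WT) and 0.433 ± 0.207 CPM (Dp1Tyb), at 0.31 ± 0.39 SE. Rps4x was at −0.027 and Rps4l, annotated as a pseudogene, at −0.15. Rpl10 at −0.097 and Rpl39 at −0.13 were tested without their variants. None of these passed the test.

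The second question was how the genes varied among the mice of a genotype. The level of each gene was set to log2(CPM + 0.5) minus its mean over the 10 samples, and the median over the 79 genes was taken per mouse. It was 0.083, 0.042, 0.067, 0.020 and 0.055 in WT replicates 1 to 5. In Dp1Tyb replicates 1 to 5 it was −0.086, −0.011, 0.0080, −0.27 and 0.070. The WT mice lay close together, and the Dp1Tyb mice reached from the second highest of the 10 values to far below all others.

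Dp1Tyb 4 was the lowest of the 10 samples in 57 of the 79 genes (72.2%), and in 16.7% of all genes tested. In Dp1Tyb 4, 9 of the 79 genes were above their own mean, in Dp1Tyb 1 18 and in Dp1Tyb 5 68. The lowest values relative to the mean were in Rps27 and Rpl35, and Rpl28, Rpl19, Rps23 and Rpl41, named after their values were seen, came next. The CV over the 5 mice had a median of 5.62% in WT and 11.4% in Dp1Tyb, and it was larger in Dp1Tyb for 64 of the 79 genes. In the other coding genes of at least 10 CPM it was 5.71% and 5.95%.

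**Figure D4:**
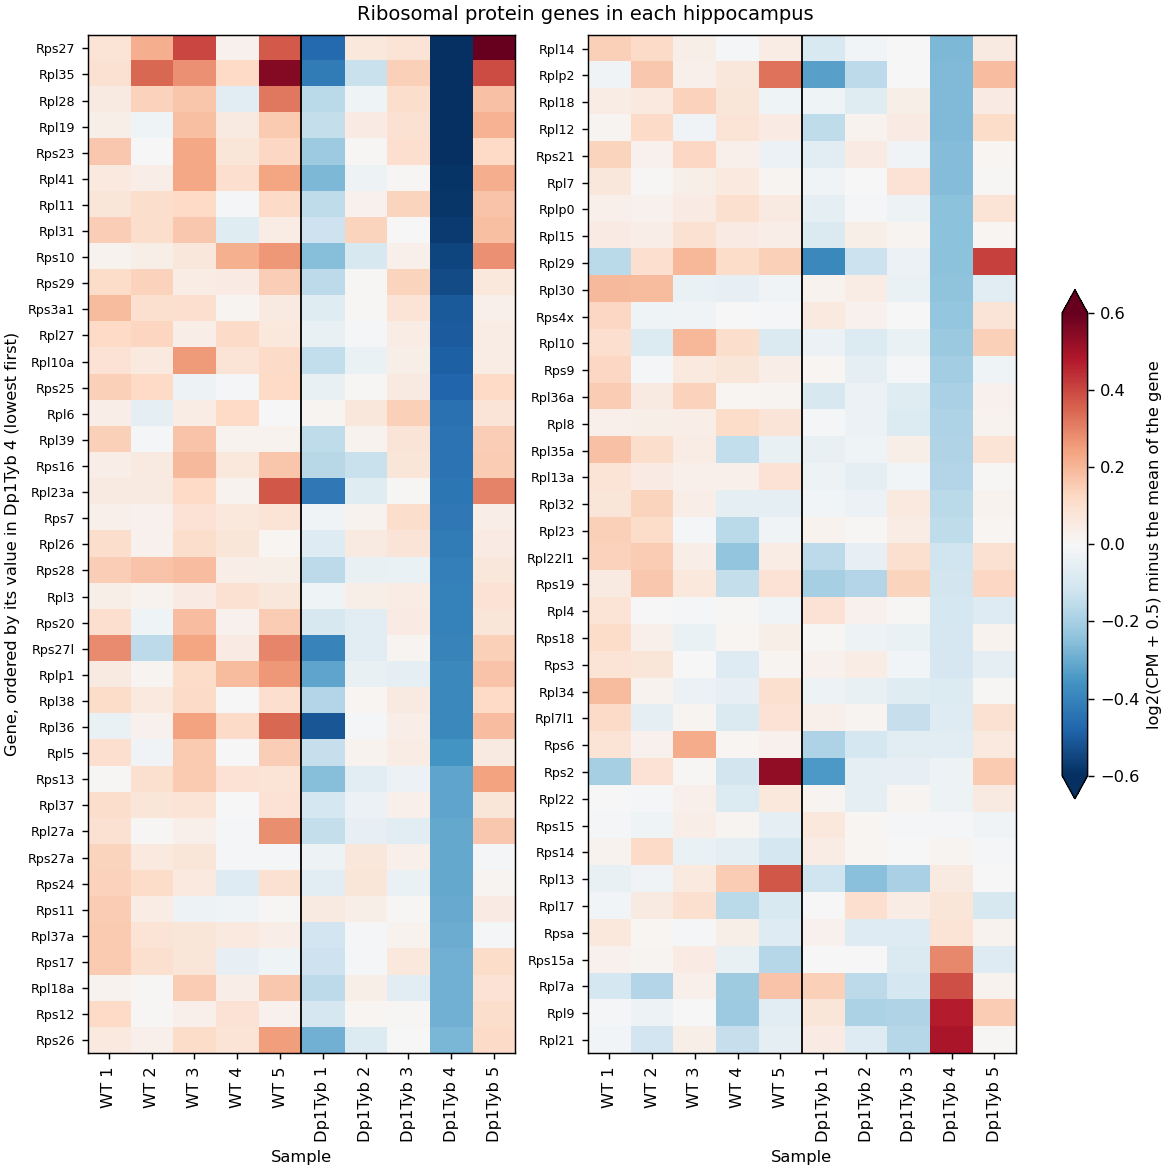
Level of 77 of the 79 genes in each mouse as log2(CPM + 0.5) minus the mean of the gene (blue below, red above the mean; the colour scale stops at 0.6 on either side), genes ordered by their value in Dp1Tyb 4. Of the 79 genes, 9 are above their mean in Dp1Tyb 4, among them Rpl21, Rpl9, Rpl7a and Rps15a.

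Without Dp1Tyb 4, 68 of the 79 genes had a log2 fold change below 0, the median was −0.070, and 13 genes were lower at an unadjusted p under 0.05, beside 5.45% of all genes in that fit. Of the 13, 12 were among the 20 above. Without Dp1Tyb 1 and 4, the median was −0.041 and 5 genes (6.33%) were lower at that limit, close to the 5.08% of all genes in that fit, with 64 below 0. None of the 79 was called in either fit (edgeR). Among the 8 genes with the smallest p, those that moved least without Dp1Tyb 4 were Rpl36a, from −0.15 to −0.13, Rpl13a, from −0.11 to −0.081, and Rpl8, from −0.12 to −0.088.

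Other measures of the samples moved with the ribosomal protein genes. In 85 other coding genes of at least 10 CPM with less than 1000 bases of exon, the same kind of median was −0.21 in Dp1Tyb 4, −0.051 in Dp1Tyb 1, and between −0.021 and 0.078 in the other 8 mice. In 9706 coding genes with longer exons it was between −0.011 and 0.0097 in all 10 mice. The median exon length of the 79 genes was 1830 bases. With the median of the short genes as a covariate, the median log2 fold change of the 79 genes was −0.060, with 69 below 0. In that fit 14 were lower at an unadjusted p under 0.05, beside 5.18% of all genes.

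The choroid plexus markers were lowest in Dp1Tyb 1, with a mean log2 level of −3.27, and in Dp1Tyb 4, with −3.14. They were also low in WT 2, with −1.44, where the median of the ribosomal protein genes was 0.042. With this score as a covariate, 71 of the 79 genes were below 0. Their median log2 fold change was −0.058, beside −0.00018 for all genes. In that fit 5 of the 79 genes (6.33%) were lower at an unadjusted p under 0.05, close to the 5.39% of all genes. Of the 12 markers in the score, 2 lie in the duplicated region, so the score is not free of the extra gene copy. The summed level of microglia markers, 8 of 8 genes, was 252 to 326 CPM in Dp1Tyb and 309 to 364 CPM in WT, that of blood markers, 5 of 5 genes, 33.4 to 67.1 CPM and 43.0 to 93.2 CPM, and that of endothelial markers, 5 of 5 genes, 144 to 153 CPM and 147 to 168 CPM. General neuron markers, 7 of 7 genes, were at 5808 to 6058 CPM in Dp1Tyb and 5243 to 5583 CPM in WT and did not overlap. The part of these differences between samples in the levels of ribosomal protein mRNA was not tested.

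**Figure D5:**
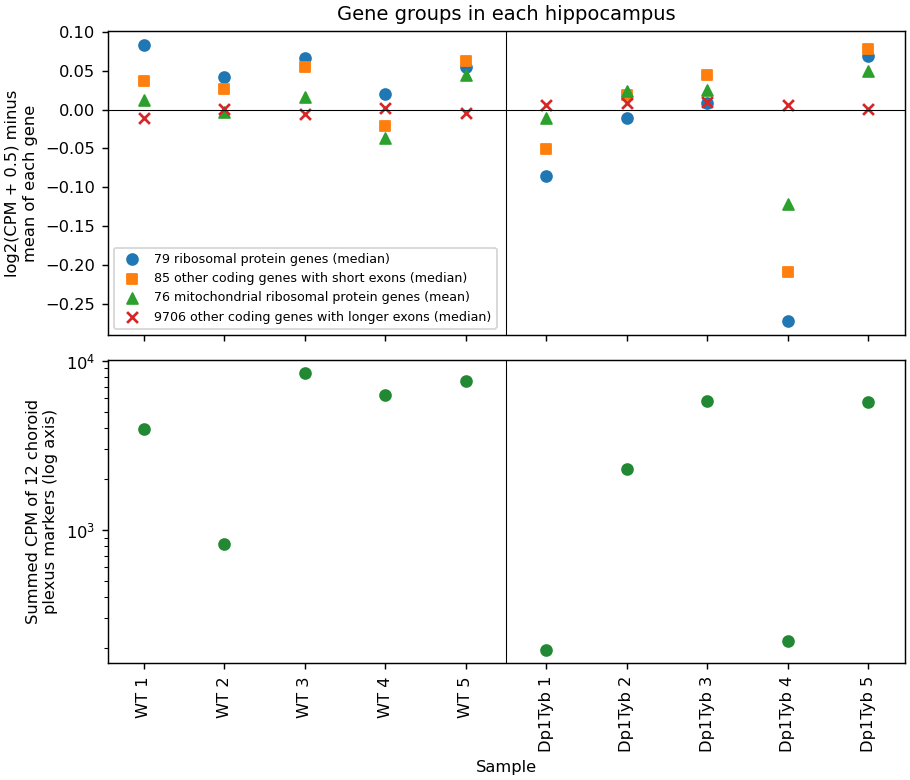
Top, log2(CPM + 0.5) minus the mean of each gene per mouse, for the 79 ribosomal protein genes (median), 85 other coding genes with short exons (median), 76 mitochondrial ribosomal protein genes (mean) and 9706 coding genes with longer exons (median). Bottom, summed CPM of 12 choroid plexus markers (log axis). Dp1Tyb 4 is low for the ribosomal protein genes at −0.27, for the short genes at −0.21, for the mitochondrial ribosomal protein genes at −0.12 and for the markers.

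The values were also split by the sharing of sequence with other genes. The median log2 fold change was −0.13 in the 25 genes with at least 50% of their stretches shared and −0.11 in the 13 genes with under 10%. The limits of this percent given above hold here too, and the part of discarded reads in the fold changes was not tested. Of the 34 pseudogenes of at least 1 CPM, 23 had their lowest value in Dp1Tyb 4, among them Rps6-ps4 at 65.3 CPM beside 111 to 121 CPM in WT. Exons of 26 of the 79 genes overlap another gene on the same strand, among them small nucleolar RNA genes such as Snord33, and those of 19 overlap a gene on the other strand.

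The other genes of translation were compared from lists chosen by function. The ribosome proteins that the naming rule misses include Fau, which is made as a fusion with a ubiquitin-like protein, Rack1, a scaffold on the small subunit, and Rpl36al, a paralog of Rpl36a. The 4 genes of this list were all below 0 with a median log2 fold change of −0.19, and 0 were called in edgeR, with 1 lower at an unadjusted p under 0.05. This was Fau, with 101 ± 3.27 (WT) and 87.9 ± 11.4 CPM (Dp1Tyb, SD, n = 5 each), and its log2 fold change in edgeR was −0.20 ± 0.075 SE (adjusted p = 0.262). Fau was at 70.4 CPM in Dp1Tyb 4 and at 84.6 to 101 CPM in the other Dp1Tyb mice. The median of the 4 genes was −0.24 to −0.12 with single mice left out and −0.20 to −0.072 in the other fits. Their mean log2 level was −0.32 in Dp1Tyb 4, 0.15 in Dp1Tyb 5 and −0.031 to 0.15 in WT.

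Of 37 initiation factors, which bring the mRNA and the first tRNA to the ribosome, 0 were called, with 3 higher and 0 lower at an unadjusted p under 0.05 and a median log2 fold change of 0.0059. Of 7 elongation factor genes, whose mRNAs mostly carry the TOP motif, 0 were called and 0 reached that limit, with a median of −0.030. Of 19 other TOP mRNAs, which include Fau and Rack1, 0 were called, 1 was higher (Npm1) and 1 lower (Fau) at that limit, and the median was −0.046. These lists overlap each other and are set out side by side as counts.

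Of 58 tested ribosome biogenesis genes, which make and process ribosomal RNA and assemble the subunits, 0 were called, with 1 higher and 2 lower at an unadjusted p under 0.05 and a median of 0.012. Of 16 genes of mTOR signalling and TOP regulation, 0 were called, with 1 lower at that limit and a median of −0.053. Larp1, which binds TOP mRNAs, was at 173 ± 8.21 (WT) and 174 ± 5.01 CPM (Dp1Tyb, SD, n = 5 each). DESeq2 called 1 initiation factor, 0 other ribosome proteins, 0 elongation factors, 0 other TOP mRNAs, 0 biogenesis genes and 0 of the mTOR and TOP regulators.

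The ribosome of mitochondria has its own proteins, encoded by separate nuclear genes, 76 of which were tested. Of these, 1 was called and higher in edgeR, 42 were below 0, and the median log2 fold change was −0.011. Their mean log2 level was lowest in Dp1Tyb 4 at −0.12 and lay between −0.037 and 0.050 in the other 9 mice. The called gene was Mrpl39, which lies in the duplicated region. It rose from a WT mean of 21.0 ± 1.05 CPM to 31.9 ± 2.84 CPM (SD, n = 5 each), and its log2 fold change in edgeR was 0.60 ± 0.067 SE (adjusted p = 0.000223). Mrps6, the other mitochondrial ribosomal protein gene of that region, was at 12.4 ± 1.77 (WT) and 17.7 ± 3.65 CPM (Dp1Tyb), and its log2 fold change in edgeR was 0.51 ± 0.14 SE (adjusted p = 0.106).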

How the data were processed

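RNA from the whole hippocampus of 10 mice (5 WT, 5 Dp1Tyb) was sequenced from stranded mRNA libraries. According to the study's methods and the submitters' processing notes, the authors trimmed reads with Trim Galore, mapped them to GRCm38 with TopHat2 (version 2.0.12), discarded reads with several alignments and counted reads per gene with HTSeq. The deposited counts are whole, unnormalized numbers of reads per gene. The annotation release and strand setting of the counting are not given in the sources used here. A table of values normalized by the authors and their DESeq2 comparison (means, fold changes, p-values) were not used.

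Counts were tested with edgeR 4.0.16 in R 4.3.3 (quasi-likelihood test, TMM factors, filterByExpr, Benjamini-Hochberg over all 17237 genes tested, call at an adjusted p under 0.05). All 10 samples entered, grouped by the genotype in their labels, with no covariate. Alternatives used DESeq2 1.42.0, limma 3.58.1 (voom), other scalings, no filter, covariates, a replicate block and omitted samples. The scripts were tested on simulated counts. CPM used TMM factors, and RPKM the joined exon length. Symbols, positions and biotypes came from GENCODE M21 (GRCm38), in which 42548 of the 43629 gene IDs were found. Start windows came from RefSeq (GRCm38.p6).

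Total counts of 18227684 to 43692270 per sample set the precision of each gene, and errors between mice include counting error. Each sample is a separate mouse. No batch is given in the labels, so values within batches could not be had.

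The genes, lists and tests were chosen with earlier results of these data known. Named genes were called members (there were none), the 8 with the smallest p on each side, the 5 highest and 5 lowest in RPKM, the paralog pairs, Rps6, Rpsa, Rps27a, Rplp0, Mrpl39, Mrps6 and called genes of other lists. Some genes in the text fall outside these rules, among them Rplp2, Fau, Npm1 and Larp1. Values of 3 genes, 2 of them ribosomal protein genes chosen by the rule, are not reported singly here but are part of the counts, medians and sums.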

Additional observations from a re-analysis of the deposited data

Results flagged for a closer look

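In each genotype, a sample was set apart when its gap to the nearest other sample was more than 0.71 of the range of the 5. Of 88 groups of 5 values looked at, 13 held such a sample, and chance gives about 4.4 (1 in 20).

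In Dp1Tyb, 5 genes and 2 lists had Dp1Tyb 4 apart. It was the highest in Rpl21 (21.3 CPM, others 13.3 to 15.6) and Rps15a (103 CPM, others 79.2 to 84.3). It was the lowest in Rps4x (137 CPM, others 161 to 170), Rpl3 (256 CPM, others 332 to 360) and Rps27a (85.2 CPM, others 103 to 111), and in the mean log2 level of the elongation factors (−0.11, others 0.0027 to 0.023) and of the other TOP mRNAs (−0.15, others −0.019 to 0.018). Dp1Tyb 5 was lowest for the ribosome biogenesis genes (−0.022, others 0.0013 to 0.0054).

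In WT, replicate 1 was highest in Rpl4 (446 CPM, others 415 to 424) and Rps4x (176 CPM, others 158 to 161) and lowest in Rpl29 (6.75 CPM, others 8.20 to 8.78) and in the mTOR and TOP regulators (mean log2 level −0.037, others 0.042 to 0.061). WT 3 was highest in Rpl10a (86.9 CPM, others 75.8 to 78.9).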

How the results depend on the processing

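None of the 79 genes was called under any alternative except the replicate block, which called 1, Rplp2 (edgeR, log2 fold change −0.23 ± 0.050 SE, adjusted p = 0.0488). The smallest adjusted p of the others ran from 0.0661 (without Dp1Tyb 5) to 0.353 (choroid plexus covariate). The numbers were not taken to pair the mice, since nothing in the labels links mice of the same number and not every pair correlated: the correlation of the deviations of WT and Dp1Tyb mice with the same number was 0.31, −0.016, 0.32, −0.071 and 0.42, and not every number correlated best with itself. The block raised the genes called overall from 191 to 315. It raised the ribosomal protein genes lower at an unadjusted p under 0.05 from 20 to 39, while the share of all genes rose from 6.4% to 9.24%.

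That number of ribosomal protein genes was 32 with scaling to library totals, 30 with no filter on low counts and 5 with the choroid plexus covariate. The shares of all genes in those fits were 8.44%, 5.07% and 5.39%. With single mice left out the number was 10 to 37 (10 without Dp1Tyb 1, 13 without WT 3 or Dp1Tyb 4, 37 without Dp1Tyb 5). The shares of all genes in these 4 fits were, in that order, 5.77%, 5.91%, 5.45% and 8.23%. Leaving out Dp1Tyb 1 and 4 together and the short-gene covariate were chosen after seeing the data. The former gave 5, beside 5.08% of all genes in that fit. The median log2 fold change stayed between −0.15 and −0.041, and the cause of these shifts was not tested. A limit of 5 CPM kept all 79 genes.

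DESeq2 called 1 initiation factor and 2 mitochondrial ribosomal protein genes. The latter number was also 2 with either covariate, without Dp1Tyb 4, and without Dp1Tyb 1 and 4. The median of the mTOR and TOP regulators was −0.068 with library totals, −0.029 with the choroid plexus covariate, −0.032 without Dp1Tyb 1 and 4, and −0.069 to −0.027 with single mice left out. The ribosome biogenesis median turned to −0.0083 with the choroid plexus covariate and −0.0080 without Dp1Tyb 1 and 4. The initiation factor median was 0.025 with the short-gene covariate. The call of Gad2 was lost with library totals and with either covariate. It was also lost when WT 1, 2, 4 or 5 or Dp1Tyb 2, 3 or 4 was left out singly. That of Gfap was lost without Dp1Tyb 2. The hippocampal neuron median turned to −0.0075 with the choroid plexus covariate, and was −0.032 to 0.042 with single mice left out (below 0 without WT 3 or WT 4).

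Among single genes, some signs turned. Rpl22 was −0.00062 in DESeq2, −0.0017 with median-of-ratios factors, −0.015 with library totals, −0.0020 with TMM factors from the other genes, and −0.019 to 0.017 with single mice left out (below 0 without WT 2, WT 4, Dp1Tyb 1, 3 or 5). Rps15 was −0.0039 with library totals and −0.0027 to 0.023 with single mice left out (below 0 without WT 5 or Dp1Tyb 1). Rpsa was above 0 without WT 1, Dp1Tyb 2 or 3, with a range over the mice left out of −0.035 to 0.0080. With the choroid plexus covariate, Rps15a was −0.017, Rps14 −0.0070 and Rps4x 0.0014. With the short-gene covariate, Rps15a was −0.022 and Rps4x 0.019. With single mice left out, Rps15a was −0.021 to 0.083 and Rps4x −0.049 to 0.021; the signs turned without Dp1Tyb 4 and, for Rps4x, also without WT 1. Without Dp1Tyb 1 and 4, Rpl9 was −0.0054, Rpl21 −0.023, Rpl7a −0.029, Rps15a −0.035, Rps15 −0.0041, Rpl29 0.015, Rps4x 0.015, Rpl22l1 0.012, Rpl39 0.0082 and Rps27 0.045.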
